A study of Mus musculus with 7 samples.

Results

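Leukocytes leave the blood by a sequence of adhesion steps, and 9 genes of those steps were examined in aged mouse skin. On the vessel wall these were the selectins Sele and Selp and the immunoglobulin-type ligands Icam1 and Vcam1 (4 genes, called the endothelial side). On the blood cell these were Selplg, which encodes the selectin ligand PSGL-1, and the integrin subunits Itgal, Itgam, Itgb2 and Itga4 (5 genes, the leukocyte side). The genes were taken by symbol for these roles, with earlier results of these data known. They came from 55450 genes listed in the count table, and all 9 were among the 17959 genes expressed highly enough to be tested. Dorsal skin came from 7 male wild type C57BL/6 mice aged 24 months. Of these, 3 (mice 476, 477 and 478) received topical ABT-263 at 5 μM for 5 days, and 4 (mice 480, 481, 482 and 483) received the DMSO vehicle alone. ABT-263 (Navitoclax) is an inhibitor of the anti-apoptotic BCL-2 family proteins that is used to remove senescent cells. The skin of both groups was clipped, depilated, cleaned with ethanol and kept under a semi-occlusive dressing, so the DMSO group is not untreated skin, and 1 bulk RNA library was made from each mouse.

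Selectins catch passing leukocytes and let them roll along the vessel wall. E-selectin is made by activated endothelium, whereas P-selectin is stored in endothelial granules and in platelets, and PSGL-1 binds both. Firm arrest follows when leukocyte integrins bind their ligands. LFA-1 (Itgal with Itgb2) and Mac-1 (Itgam with Itgb2) bind ICAM-1, and VLA-4 (Itga4 with Itgb1) binds VCAM-1. Icam1 and Vcam1 are not restricted to endothelium, since keratinocytes, fibroblasts and leukocytes can also make them.

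Sequence upstream of the start site was shown for members that stand for each side, because the transcription of Sele and Icam1 is known to respond to NF-kB and that of Itgam to the myeloid factor PU.1. The RefSeq promoter table on GRCm38.p6 matched 5 of the 9 members (Sele, Selp, Icam1, Itgam and Itga4), and Vcam1, Selplg, Itgal and Itgb2 had no match. The 250 bases before the start site are printed on the plus strand, for Sele at chr1:164047984-164048233, for Icam1 at chr9:21015690-21015939 and for Itgam at chr7:128062390-128062639. The start site is that of RefSeq, which for Icam1 lies upstream of the gene start at 21015985 given below. Offsets for Icam1 refer to the RefSeq start. Capitals mark GGANATTCC in Sele and Icam1, and the PU.1 core GAGGAA on either strand in Itgam.
Sele: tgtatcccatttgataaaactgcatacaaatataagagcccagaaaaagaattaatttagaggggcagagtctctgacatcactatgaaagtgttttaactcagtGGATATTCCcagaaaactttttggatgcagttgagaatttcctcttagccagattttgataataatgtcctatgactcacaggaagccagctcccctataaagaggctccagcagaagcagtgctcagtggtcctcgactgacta
Icam1: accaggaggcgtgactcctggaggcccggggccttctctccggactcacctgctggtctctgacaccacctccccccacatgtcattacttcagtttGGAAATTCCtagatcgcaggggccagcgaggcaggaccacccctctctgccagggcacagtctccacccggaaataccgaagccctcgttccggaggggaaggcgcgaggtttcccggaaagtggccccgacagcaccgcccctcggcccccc
Itgam: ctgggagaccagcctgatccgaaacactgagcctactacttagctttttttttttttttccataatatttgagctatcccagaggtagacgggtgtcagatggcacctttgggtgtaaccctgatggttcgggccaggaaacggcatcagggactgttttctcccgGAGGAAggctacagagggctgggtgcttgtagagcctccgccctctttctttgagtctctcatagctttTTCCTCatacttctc
The motifs were searched on both strands in windows of 300 bases that also took in 50 bases after the start site. The NF-kB consensus was found in 0 of the 5 member windows and in 4.51% of all 32851 windows. GGANATTCC, which was chosen after the sequences were seen, was found in 2 of the 5 (Sele, starting at -145 from the start site, and Icam1, at -153) and in 0.931% of all windows. Because of that choice its 2 matches cannot be weighed against the share of all windows. GAGGAA was found in 2 of the 5 (Sele and Itgam) and in 28.3% of all windows, with 3 matches in Itgam. The GC box GGGCGG was found in 3 of the 5 (Icam1, Itgam and Itga4) and in 35.7% of all windows. These matches describe letters in a window and were not tested for binding.

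All 4 endothelial-side genes rose after ABT-263, by 1.91 to 3.99 on the log2 scale, and every ABT-263-treated mouse was above every DMSO-treated mouse in each of them. On the leukocyte side Itgb2 and Itgal rose, Selplg and Itgam did not pass the threshold, and the groups overlapped in Itga4. The test was edgeR's quasi-likelihood test, two-sided, with Benjamini-Hochberg adjustment over all genes tested and a threshold of 0.05. Of the 9 members, 6 were higher and 0 lower at that threshold, against 12.4% of all genes tested that were higher and 11.7% that were lower. The members were chosen with earlier results known, so the contrast with these shares is a description and no test. At an unadjusted p under 0.05, 8 members were higher and 0 lower, and by the DESeq2 Wald test 7 were higher and 0 lower of 8 with an adjusted p. The median log2 fold change was 3.13 on the endothelial side, 1.69 on the leukocyte side and 0.0022 over all genes tested. Without ABT-263-treated mouse 476 these medians were 2.26, 0.74 and 0.0086. In bulk skin, more cells of a type and more RNA per cell cannot be told apart.

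**Figure D1:**
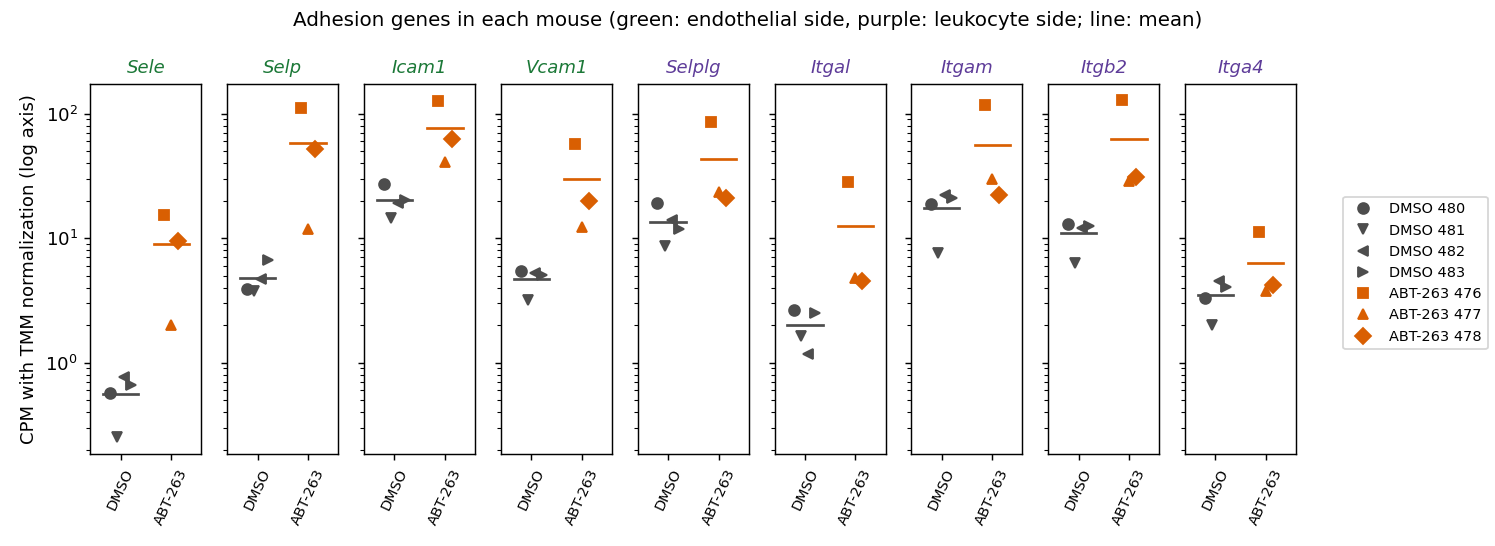
Expression of the 9 adhesion genes in each mouse, in CPM with TMM normalization on a log axis, with 1 symbol per mouse and a line at the mean of the 4 DMSO-treated (grey) or 3 ABT-263-treated (orange) mice. ABT-263-treated mouse 476 (square) was the highest mouse in all 9 panels, and the groups overlapped in 1 panel, Itga4.

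The libraries held between 20344364 and 43562330 counted read pairs, and the 3 libraries from ABT-263-treated mice were the largest. Expression is given as CPM, read pairs scaled to the library total with TMM normalization, in which 1 CPM stands for 19.5 to 46.6 read pairs. Skin keratins were abundant in each mouse, with the summed level of 5 keratinocyte markers between 17813 and 50344 CPM. DMSO-treated mouse 481 was the lowest mouse in the summed level of the 9 members (48.0 CPM, against 83.6 to 94.3 CPM in the other DMSO-treated mice). ABT-263-treated mouse 476 was the highest (679 CPM, against 157 and 228 CPM in mice 477 and 478). The labels name no batch.

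Gene positions are those of GRCm38. Sele, on chromosome 1 from 164048234 to 164057677, encodes E-selectin and was barely detected after DMSO, with 14, 6, 15 and 16 read pairs in mice 480 to 483. These are 0.573, 0.253, 0.770 and 0.657 CPM, and the ABT-263-treated mice 476, 477 and 478 had 15.3, 2.02 and 9.52 CPM. The groups did not overlap, and mouse 477 was the lowest of the treated mice. Sele rose by 3.99 ± 0.68 on the log2 scale (SE, edgeR adjusted p = 0.00977), the largest change of the 9 members. This value rests on few reads in the DMSO group, and leaving out single mice gave 3.36 to 4.49.

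Selp, on chromosome 1 from 164115264 to 164150026, encodes P-selectin. It was at 3.93, 3.79, 4.72 and 6.70 CPM after DMSO and at 110, 11.7 and 52.4 CPM after ABT-263. The order of the treated mice was that seen for Sele, with 476 the highest and 477 the lowest. Selp rose by 3.60 ± 0.66 on the log2 scale (SE, edgeR adjusted p = 0.0124), and by 2.75 without mouse 476. Because P-selectin is also carried by platelets, their markers were summed, and they lay between 34.8 and 85.3 CPM after DMSO and between 60.0 and 82.0 CPM after ABT-263. Of 5 platelet markers tested, 0 were higher or lower by edgeR (2 higher at an unadjusted p under 0.05), and 1 was higher by the DESeq2 Wald test. Over all genes tested 12.4% were higher and 11.7% lower by edgeR, so 0 of 5 is near those shares. Pf4, which made up most of this sum, averaged 47.3 CPM (SD 19.8, n = 4) in DMSO-treated and 57.5 CPM (SD 9.98, n = 3) in ABT-263-treated mice. The sum thus mainly follows Pf4 and says little about the less abundant markers. Whether platelet content changed was not tested. The markers with an unadjusted p under 0.05 were Ppbp, with means of 0.480 and 1.62 CPM and no overlap between the groups (edgeR adjusted p = 0.0712), and Gp9, with means of 0.231 and 0.720 CPM (adjusted p = 0.100). Ppbp had 4 to 21 read pairs per DMSO library and Gp9 had 2 to 10. Both passed the filter on low counts only with the ABT-263 libraries, where they were higher. Gp1ba had 0 read pairs in every DMSO library and 1, 4 and 3 in mice 476, 477 and 478. Treml1, also too low to be tested, had means of 0.245 and 0.600 CPM, and its groups overlapped. Of the 5 tested, 3 had a positive log2 fold change. Itga2b and Gp1bb went the other way, at -0.17 and -1.02 on the log2 scale (edgeR adjusted p = 0.501 and 0.373). Exons of Gm49601 and Sept5 cover 92.9% of the exon bases of Gp1bb on the same strand, so its level is uncertain. Gp1bb was at 2.62 CPM in DMSO-treated mouse 480 and between 0.548 and 0.575 CPM in the other DMSO-treated mice, so its negative value rests largely on mouse 480.

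Icam1, on chromosome 9 from 21015985 to 21028817, encodes the ligand of LFA-1 and Mac-1. It had the highest mean level per exon length of the members after DMSO, though the level of Itgam is uncertain, as given below. It was at 27.3, 14.5, 19.3 and 20.2 CPM after DMSO and at 127, 40.9 and 62.1 CPM after ABT-263. Icam1 rose by 1.91 ± 0.38 on the log2 scale (SE, edgeR adjusted p = 0.0146), the smallest change of the endothelial side. Vcam1, on chromosome 3 from 116109949 to 116129688, encodes the ligand of VLA-4. It was at 5.40, 3.16, 5.24 and 5.09 CPM after DMSO and at 57.3, 12.2 and 20.0 CPM after ABT-263. Vcam1 rose by 2.66 ± 0.51 on the log2 scale (SE, edgeR adjusted p = 0.0131), and the groups did not overlap. Without mouse 476 the changes of Icam1 and Vcam1 were 1.35 and 1.78. In all 7 fits that left out a single mouse, the 4 endothelial-side genes stayed past the threshold, with edgeR adjusted p-values up to 0.0464.

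Itgb2, on chromosome 10 from 77530252 to 77565708, encodes the β2 subunit that leukocyte integrins share. It was at 13.0, 6.36, 12.0 and 12.5 CPM after DMSO and at 128, 28.6 and 31.2 CPM after ABT-263. Mice 477 and 478 were close to each other and well below mouse 476. Itgb2 rose by 2.51 ± 0.56 on the log2 scale (SE, edgeR adjusted p = 0.0205). The change was 1.45 without ABT-263-treated mouse 476, and the adjusted p was 0.0532 without DMSO-treated mouse 482 and 0.0523 without mouse 483.

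Itgal, on chromosome 7 from 127296260 to 127335138, encodes the α subunit of LFA-1, which lymphocytes, monocytes and neutrophils carry. It was at 2.66, 1.64, 1.18 and 2.51 CPM after DMSO and at 28.2, 4.76 and 4.55 CPM after ABT-263. Itgal rose by 2.63 ± 0.69 on the log2 scale (SE, edgeR adjusted p = 0.0326). The change was 1.22 without mouse 476, and the call was lost without that mouse or without any of the 4 DMSO-treated mice (adjusted p between 0.0516 and 0.0813 from edgeR).

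Itgam, on chromosome 7 from 128062640 to 128118491, encodes the α subunit of Mac-1, a marker of neutrophils, monocytes and macrophages. It was at 18.9, 7.58, 22.0 and 21.0 CPM after DMSO and at 116, 29.8 and 22.4 CPM after ABT-263. The groups did not overlap, but mouse 478 was above the highest DMSO-treated mouse by a small margin. At 1.69 ± 0.61 on the log2 scale (SE, edgeR adjusted p = 0.0806) Itgam missed the threshold, and the value was 0.59 without mouse 476. Exons of the gene model Gm49368 cover 68.7% of the exon bases of Itgam on the same strand. Gm49368 itself had 0 read pairs in 5 of the 7 mice and 19 and 13 in mice 476 and 477. Read pairs that fit both genes may have been assigned to neither, so the level of Itgam is uncertain.

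Selplg, on chromosome 5 from 113818536 to 113832644, was at 19.3, 8.64, 13.9 and 11.7 CPM after DMSO and at 85.4, 23.4 and 21.1 CPM after ABT-263. The groups did not overlap, and mouse 478 lay just above DMSO-treated mouse 480. At 1.69 ± 0.52 on the log2 scale (SE, edgeR adjusted p = 0.0505) Selplg missed the threshold, and the value was 0.74 without mouse 476. The adjusted p was 0.00483 by the DESeq2 Wald test, and 0.0451 with edgeR when genes had to reach at least 10 counts in every library. Itga4, on chromosome 2 from 79255426 to 79333123, encodes the α4 subunit of lymphocytes and monocytes that binds VCAM-1. It was at 3.31, 2.02, 4.52 and 4.03 CPM after DMSO and at 11.1, 3.76 and 4.23 CPM after ABT-263. Mice 477 and 478 lay within the DMSO range, and the difference on the log2 scale was 0.87 ± 0.44 (SE, edgeR adjusted p = 0.174). Without mouse 476 it was 0.21. Its partner Itgb1, which many cell types express, rose from a mean of 155 CPM (SD 12.4, n = 4) to one of 318 CPM (SD 78.0, n = 3), or by 1.04 ± 0.18 on the log2 scale (SE, edgeR adjusted p = 0.00921).

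**Figure D2:**
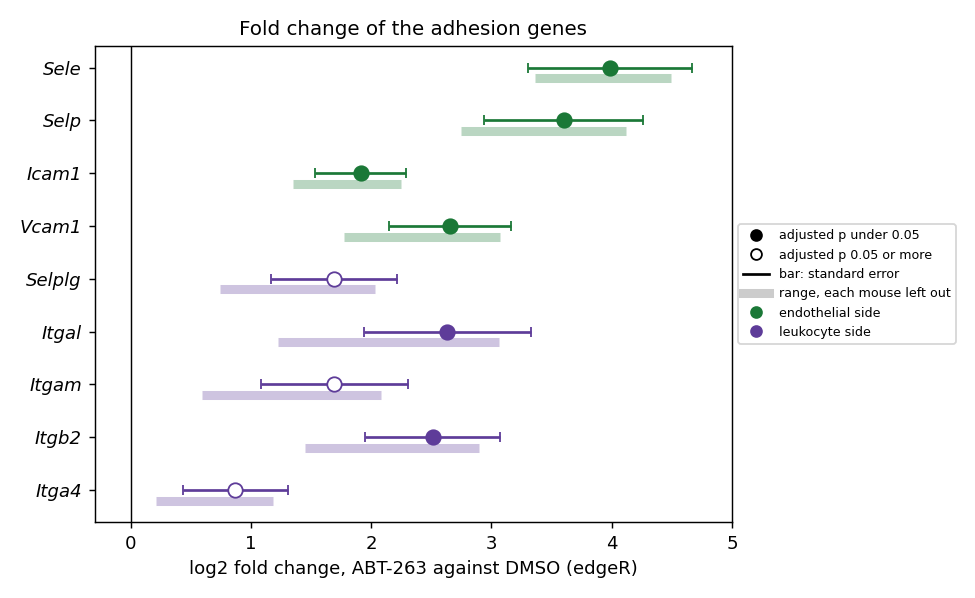
Log2 fold change of each member between ABT-263- and DMSO-treated skin from edgeR (points, filled where the adjusted p was under 0.05), with its standard error (thin bars) and the range of values with each mouse left out in turn (thick bars). The 4 endothelial-side genes (green) lie between 1.91 and 3.99, and the 5 leukocyte-side genes (purple) between 0.87 and 2.63.

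The groups did not overlap in 8 of the 9 members, all higher after ABT-263. Over all genes tested the groups did not overlap in 37.1%, with 18.7% higher and 18.4% lower. An exact permutation test on log2 CPM, two-sided, gave p = 0.0286 for each of these 8, the smallest value that 4 mice against 3 allow, and p = 0.229 for Itga4. Without overlap this permutation p is the same however far apart the groups lie, so it restates the lack of overlap. Replicates are separate mice, so the edgeR p-values take in the spread between mice.

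Per kilobase of exon, the order of mean levels after DMSO was Icam1 (4.66 CPM per kilobase), Itgb2 (3.59), Itgam (3.45), Selplg (3.13), Selp (1.08), Vcam1 (0.532), Itgal (0.304), Itga4 (0.248) and Sele (0.193). The neighbours Itgb2 and Itgam, and Itgam and Selplg, were each in this order in 2 of 4 mice, and Itgal was above Itga4 in 3 of 4 mice, so these neighbours did not differ beyond the spread between mice. After ABT-263 the mean levels per kilobase were highest for Itgb2 (20.5 ± 18.5 CPM per kilobase, SD, n = 3), Icam1 (17.6 ± 10.2) and Selp (13.2 ± 11.2). Itgb2 was above Icam1 in 1 of 3 mice, so the order of these 2 was set by mouse 476. Sele was the last of the 9 members after DMSO and the 7th after ABT-263, where it was below Vcam1 in 2 of 3 mice and above Itgal in 2 of 3, so its rank among these was not set apart by the spread. Itga4 (0.456 CPM per kilobase) was then the last. The place of Itgam in both orders carries the uncertainty noted above, since its length included the exon bases shared with Gm49368.

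Since LFA-1 and Mac-1 share the β2 subunit, the level of Itgb2 was set against the summed levels of its α partners Itgal, Itgam, Itgax and Itgad, all per kilobase of exon. The ratio was 0.841, 0.809, 0.770 and 0.796 in the DMSO-treated mice and 1.42, 1.20 and 1.67 in the ABT-263-treated mice 476, 477 and 478. The groups did not overlap in this ratio, which carries the uncertainty in Itgam noted above. Itgam made up 58.6% to 86.2% of the summed α levels after DMSO and 73.0% to 78.4% after ABT-263. Itgal made up 3.53% to 9.71% after DMSO and 9.28% to 14.5% after ABT-263, and these ranges overlapped. Itgax, a subunit of dendritic cells and macrophages, had means of 3.41 CPM (SD 0.881, n = 4) and 6.63 CPM (SD 2.80, n = 3), and at 0.95 on the log2 scale it missed the threshold (edgeR adjusted p = 0.0667).

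The endothelial and the leukocyte side were set side by side in each mouse. Each gene's log2 CPM was expressed as its difference from the DMSO mean and averaged over the genes of a side, as a description with no test. The endothelial side was at 3.62, 1.21 and 2.56 in ABT-263-treated mice 476, 477 and 478, and the leukocyte side was at 2.84, 0.87 and 0.81. The DMSO-treated mice lay between -0.42 and 0.19 on the endothelial side and between -0.61 and 0.29 on the leukocyte side. Mouse 478 was thus above mouse 477 on the endothelial side and level with it on the leukocyte side. In single genes, Selp was at 52.4 CPM in mouse 478 and 11.7 CPM in mouse 477, whereas Itgb2 was at 31.2 and 28.6 CPM.

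**Figure D3:**
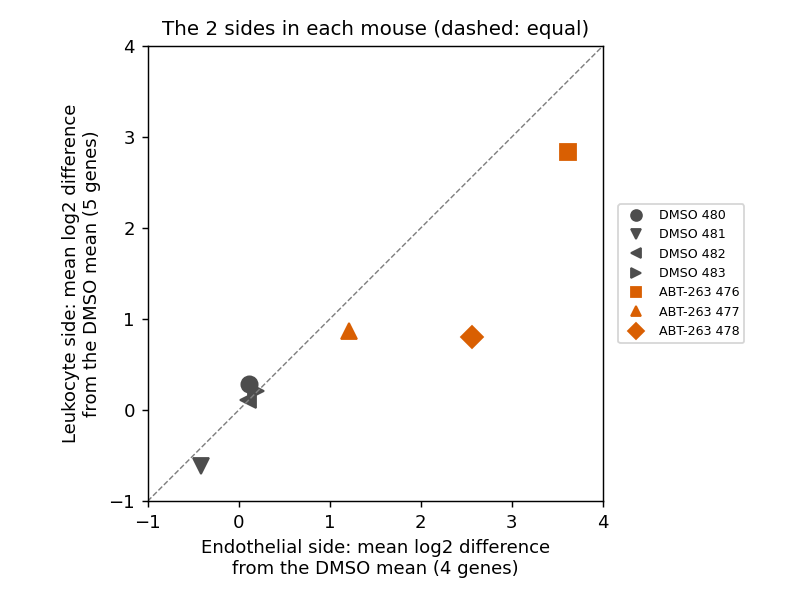
Mean log2 difference from the DMSO mean of the 4 endothelial-side genes (x axis) and the 5 leukocyte-side genes (y axis), with 1 symbol per mouse and a dashed line where both are equal. The ABT-263-treated mice (orange) lie below the line, and mouse 478 (diamond) is the farthest from it, at 2.56 and 0.81.

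Several markers of endothelial cells and of leukocytes were also higher after ABT-263. The counts of markers below stand beside the shares over all genes tested, of which 12.4% were higher and 11.7% lower. Of 12 endothelial markers tested, 8 were higher and 0 lower after ABT-263, and their summed level was between 320 and 689 CPM after DMSO and between 909 and 1153 CPM after ABT-263. Mice 477 and 478, which differed in the endothelial-side members, were close in this sum, at 909 and 940 CPM. Of 10 markers shared by leukocytes, 5 were higher, with summed levels of 230 to 481 CPM after DMSO and 472 to 1608 CPM after ABT-263, which overlapped. Mice 477 and 478 were at 472 and 480 CPM, within the DMSO range. Without mouse 476 the means of these markers differed from 0.978-fold (Laptm5) to 4.19-fold (Cd53). Of 10 macrophage and monocyte markers 8 were higher (388 to 1133 CPM and 1282 to 4179 CPM summed). Their means without mouse 476 differed from 1.14-fold (C1qa) to 3.15-fold (Ly6c2). Of 5 neutrophil markers tested 2 were higher, and the summed level of all 8 listed was 100 to 1822 CPM after DMSO and 5096 to 8158 CPM after ABT-263, most of it from S100a8 and S100a9, which keratinocytes also make. The neutrophil surface marker Ly6g was too low to be tested, with 0 to 6 read pairs per DMSO library and 391, 4 and 8 in mice 476, 477 and 478, so its reads were nearly all in the mouse with the highest members. The neutrophil receptor gene Csf3r was higher in each treated mouse, at 1.35 to 3.72 CPM after DMSO and at 78.0, 12.4 and 10.7 CPM after ABT-263. Of the 5 neutrophil markers tested, 4 were higher without overlap, against 18.7% of all genes tested. In mice 477 and 478, Mmp8 (0.807 and 1.29 CPM), Ltf (0.252 and 0.172 CPM) and Camp (0.101 and 0.258 CPM) lay within the DMSO range. These 3 genes were at 59.1, 8.26 and 4.58 CPM in mouse 476. Fibroblast markers were higher in 3 of 6 (1928 to 2686 CPM and 3490 to 4634 CPM summed), and skeletal muscle markers were lower in 2 of 5 (25368 to 52620 CPM and 18881 to 25758 CPM summed). T cell markers were higher or lower in 0 of 7 tested by edgeR (0 at an unadjusted p under 0.05, 1 higher by the DESeq2 Wald test), with summed levels of 14.1 to 26.1 CPM and 14.3 to 54.6 CPM. B cell markers (0 of 2 tested) and keratinocyte markers (0 of 5) had 0 genes at an unadjusted p under 0.05 and 0 by the DESeq2 Wald test. In lists this short a count of 0 is near the shares over all genes. The counts for T cell, B cell and keratinocyte markers thus say little about those cells. The summed level of the B cell markers was 1.47 to 3.72 CPM after DMSO and 2.00 to 5.26 CPM after ABT-263. The part of cell numbers in the changes of the members was not tested.

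Set against a lineage gene of the same mouse, 2 of the 4 endothelial-side genes and 0 of the 5 leukocyte-side genes were higher in every treated mouse. The reference was Pecam1 on the endothelial side and Ptprc on the leukocyte side, so these 2 counts cannot be compared directly. Icam1 and Vcam1, which leukocytes can also make, were not set against Ptprc. Pecam1, which encodes the endothelial junction protein CD31, rose from a mean of 95.2 CPM (SD 31.8, n = 4) to one of 194 CPM (SD 28.3, n = 3), or by 1.03 ± 0.26 on the log2 scale (SE, edgeR adjusted p = 0.0280). Ptprc, which encodes the leukocyte antigen CD45, rose 6.51-fold, from a mean of 7.79 CPM (SD 1.74, n = 4) to one of 50.7 CPM (SD 54.7, n = 3, edgeR adjusted p = 0.0268). In ABT-263-treated mice 476, 477 and 478 it was at 114, 16.2 and 22.2 CPM, and without mouse 476 the means differed 2.47-fold. The log2 ratio of Sele to Pecam1 was -7.88, -7.83, -6.88 and -7.22 in the DMSO-treated mice and -3.89, -6.45 and -4.23 in ABT-263-treated mice 476, 477 and 478. That of Vcam1 was -4.64, -4.18, -4.12 and -4.26 after DMSO and -1.99, -3.85 and -3.16 after ABT-263. Both ratios were higher in every treated mouse, as were those of 1.36% of all genes tested, while 53.3% were lower. The ratios of Selp and Icam1 to Pecam1 overlapped between the groups, with mouse 477 inside the DMSO range. With Cdh5, another endothelial junction gene, in place of Pecam1, the ratios of all 4 genes overlapped, where 0.273% of all genes were higher and 82.2% lower. Cdh5 itself rose by 1.92 ± 0.24 on the log2 scale (SE, edgeR adjusted p = 0.00622).

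The log2 ratio of Itgb2 to Ptprc was 0.47 ± 0.21 (SD, n = 4) after DMSO and 0.49 ± 0.32 (SD, n = 3) after ABT-263, and that of Itgal was -2.01 ± 0.49 and -2.02 ± 0.26. Neither shift exceeded the spread between mice. The ratio of Itga4 to Ptprc went from -1.20 ± 0.37 (SD, n = 4) to -2.62 ± 0.65 (SD, n = 3), and that of Selplg from 0.75 ± 0.18 to 0.02 ± 0.48, both lower in every treated mouse. In the same ratio, 74.6% of all genes tested were lower and 0.212% higher without overlap, so a fall against Ptprc was the common case. The ratio of Itgam to Ptprc overlapped between the groups. Relative to Cd53, another gene shared by leukocytes, Selplg, Itgam, Itgb2 and Itga4 were lower without overlap, as were 89.2% of all genes, and 0.039% were higher.

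**Figure D4:**
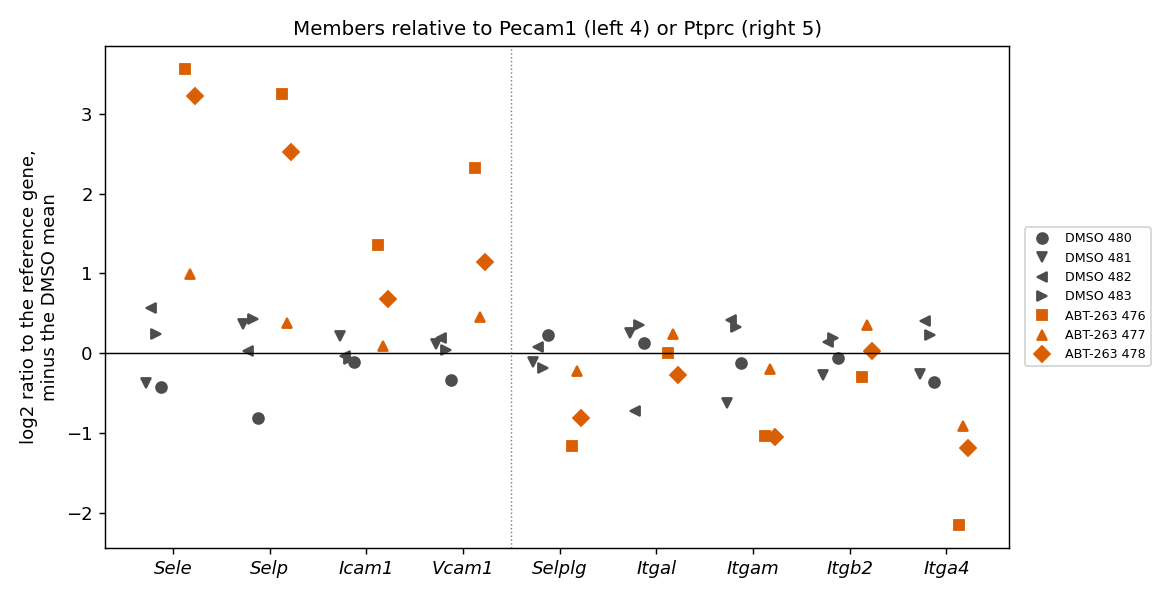
Log2 ratio of each endothelial-side gene to Pecam1 (left of the dotted line) and of each leukocyte-side gene to Ptprc (right), minus the mean of the 4 DMSO-treated mice, with 1 symbol per mouse. Sele and Vcam1 are above the DMSO-treated mice (grey) in all 3 ABT-263-treated mice (orange), whereas Itgb2 and Itgal stay around 0.

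Other genes of the adhesion cascade were counted in 5 lists. Among the other selectin ligand genes, 2 of 6 tested were higher and 0 lower, against 12.4% of all genes that were higher. These were Spn and Glycam1. Spn, which encodes the leukocyte sialomucin CD43, rose from a mean of 2.90 CPM (SD 1.10, n = 4) to one of 7.66 CPM (SD 4.05, n = 3), or by 1.39 on the log2 scale (edgeR adjusted p = 0.0379). Glycam1, which encodes a mucin-like selectin ligand, had 1 to 9 read pairs per DMSO library and 89, 27 and 23 in mice 476, 477 and 478 (log2 fold change 2.87, edgeR adjusted p = 0.0428). Its reads were few after DMSO, so that it passed the filter on low counts through the ABT-263 group, and where each library had to hold at least 10 counts 1 of 5 tested genes of this list was higher. The means of Glycam1 differed 7.70-fold, and 3.11-fold without mouse 476. The abundant ligands Cd34, Podxl, Cd44 and Glg1 missed the threshold, at 0.29, 0.24, 0.23 and 0.03 on the log2 scale. The list's median log2 fold change was 0.27.

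Of the 9 glycosylation genes tested, whose enzymes build or sulphate selectin ligands, 5 were higher and 0 lower. Over all genes tested 12.4% were higher and 11.7% lower. The median log2 fold change of the list was 0.82. The 4 with the smallest p-values were the sialyltransferase St3gal4 (log2 fold change 1.05, edgeR adjusted p = 0.0238), the tyrosine sulphotransferases Tpst1 (0.57, adjusted p = 0.0267) and Tpst2 (0.60, adjusted p = 0.0430), and the core 2 branching enzyme Gcnt1 (1.62, adjusted p = 0.0280). The means of Gcnt1 differed 3.09-fold, and 2.02-fold without mouse 476. The list's median was 0.52 without that mouse. Fut7, the fucosyltransferase of leukocyte selectin ligands, averaged 0.410 CPM after DMSO and 0.744 CPM after ABT-263, and missed the threshold (edgeR adjusted p = 0.280). Leaving out single mice gave 0 to 5 higher genes in this list and 0 to 2 in the list of other selectin ligands. In both lists 0 were higher without DMSO-treated mouse 481 or 482, and leaving out mouse 483 gave 1 and 0. The counts were 2 and 0 without ABT-263-treated mouse 476, and 1 and 0 without mouse 478.

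Of 10 genes for integrin activation, 1 was higher by edgeR adjusted p, which is near the share of 12.4% over all genes tested. At an unadjusted p under 0.05, 6 were higher, and by the DESeq2 Wald test 3 of 9 were. All 10 had a positive log2 fold change, against 50.1% of all genes tested. In 3 the groups did not overlap, against 18.7% of all genes that were higher without overlap. The gene past the edgeR threshold was Apbb1ip, which encodes the Rap1 effector RIAM. Apbb1ip rose from a mean of 9.92 CPM (SD 1.87, n = 4) to one of 31.1 CPM (SD 10.8, n = 3), or by 1.65 on the log2 scale (edgeR adjusted p = 0.00769). Without mouse 477, 5 were higher. Fermt3, which encodes kindlin-3, missed the threshold at a log2 fold change of 1.49 (edgeR adjusted p = 0.0516). Of the other leukocyte integrin subunits, 1 of 4 tested was higher (Itgb1), a list too short to set against that share. Of 12 junctional and transmigration genes, 4 were higher, against the same 12.4%. They were Cdh5, Jam2 (log2 fold change 1.23, edgeR adjusted p = 0.00732), Pecam1 and Icam2 (1.36, adjusted p = 0.0322). None of these 3 lists held a gene that was lower past the threshold (0 also at an unadjusted p under 0.05 and by the DESeq2 Wald test). The median log2 fold changes of integrin activation genes, other integrin subunits and junctional genes were 0.70, 1.00 and 0.45, and without mouse 476 they were 0.24, 0.48 and 0.34. Of the junctional genes 2 were higher when DMSO-treated mouse 482 or 483, or ABT-263-treated mouse 476 or 478, was left out.

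**Figure D5:**
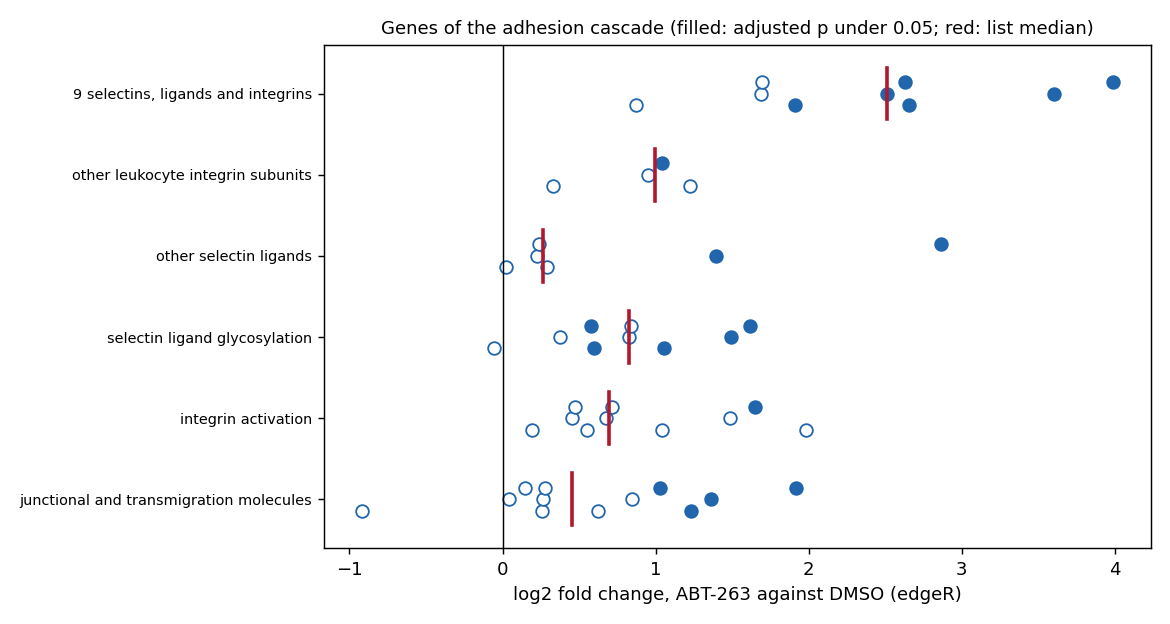
Log2 fold change between ABT-263- and DMSO-treated skin from edgeR for each tested gene of the 9 members and of 5 further lists of the adhesion cascade, filled where the adjusted p was under 0.05, with a red line at the list median. The median of the 9 members is 2.51, and those of the other lists lie between 0.27 and 1.00.

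The genes whose profiles were most like those of the members over the 7 libraries were found by the root mean square difference of log2 CPM after centring each gene on its own mean, among protein-coding genes with a mean of at least 1 CPM. For Sele the nearest 2 included Selp (0.27), and for Selp they were AA467197 (0.24) and Sele (0.27), so the 2 vascular selectins were among each other's nearest genes. For Icam1 they were Parp9 (0.13) and Rnf213 (0.14), and for Vcam1 Ifi204 (0.18) and Mpeg1 (0.19). On the leukocyte side the nearest to Itgb2 were Tyrobp (0.16) and Slc11a1 (0.16), to Selplg Hcls1 (0.10) and Il2rg (0.11), and to Itgal Gsap (0.23) and Ncf4 (0.25). For Itgam they were Cyp4f18 (0.18) and Il21r (0.18), and for Itga4 C1rl (0.13) and Ctsz (0.15). These distances are differences on the log2 scale, describe 7 libraries, and were not tested.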

How the data were processed

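Bulk RNA of dorsal skin was sequenced in 7 libraries, 1 per mouse. The authors aligned reads to mm10 with STAR 2.7.9a and deposited raw counts of uniquely aligned proper pairs on the same strand per Ensembl gene (featureCounts, Subread 1.6.2), without mitochondrial genes. A table of variance-stabilized values was not used here. Symbols, positions and exon lengths came from GENCODE M21 (GRCm38), which held 55190 of the 55450 identifiers and is not the authors' Ensembl release.

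Counts were analyzed in R 4.3.3 with edgeR 4.0.16 (filterByExpr, TMM, robust quasi-likelihood test, adjustment over 17959 genes). Standard errors are the log2 fold change divided by the square root of F. Side means and profiles used log2(CPM + 0.5). Scripts were tested on simulated data. Alternatives were the Wald test of DESeq2 1.42.0 with default filters, DESeq2's size factors, other filters on low counts, counts thinned to the smallest library, leaving out each mouse, and other reference genes. All 9 members were named. In the other lists called genes were named, up to 4 in order of p, with further list genes named after their values were seen. Some items are not reported here, and the list of other selectin ligands was counted without 1 of its genes. The members and lists were chosen with earlier results of these data known.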

Additional observations from a re-analysis of the deposited data

Results flagged for a closer look

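In the DMSO group, Dixon's ratio was computed for 36 measures to find a single mouse standing apart, and 2 passed its critical value for 4 samples, where chance gives 1.8. Mouse 481 was the lowest in both, with a ratio of 0.863 for Vcam1 (3.16 CPM, against 5.09 to 5.40 CPM in the other mice) and of 0.842 for Itgb2 (6.36 CPM, against 12.0 to 13.0 CPM). Without mouse 481 both genes stayed past the threshold.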

How the results depend on the processing

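Over the fits without 1 mouse, the members that were higher numbered 4 to 7, of which 4 in every fit were on the endothelial side and 0 to 3 on the leukocyte side. The leukocyte side had 0 without DMSO-treated mouse 482 or 483 and 1 without DMSO-treated mouse 480 or 481 or ABT-263-treated mouse 476. It also had 0 when no gene with any count was filtered out (adjusted p 0.0722 for Itgb2 and 0.0873 for Itgal from edgeR). Over all genes the higher calls ranged from 850 to 2286 and the lower calls from 771 to 2104 with a mouse left out. The same ranges were 0 to 2 for other selectin ligands, 0 to 5 for glycosylation, 1 to 5 for integrin activation and 2 to 5 for junctional genes. With the DESeq2 Wald test 2 other integrin subunits and 3 integrin activation genes were higher. Integrin activation had 2 with every gene tested and 2 with at least 10 counts in every library, where other selectin ligands had 1. Thinning gave 3 for glycosylation. Relative to Cd53 and Cdh5, 0 members were higher and 4 lower without overlap, against 2 and 2 with Ptprc and Pecam1. The cause of these shifts was not tested. The log2 ratio of Itgb2 turned from 0.03 higher to Ptprc to lower to Cd53 (-0.65), and that of Icam1 from 0.71 higher to Pecam1 to -0.13 to Cdh5. The log2 fold change of each member kept its sign under the other tests, filters and scalings and without any 1 mouse. Sele could not be fitted with at least 10 counts in every library, since DMSO-treated mouse 481 had 6, and DESeq2 gave Itgal no adjusted p. No paired analysis was possible because the groups share no mouse numbers.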
